A study of Mus musculus with 4 samples.

Results

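The genes described here are the components of oxidative phosphorylation, picked by symbol from the singlet count tables. The pattern took the nuclear genes whose names start with Nduf (a, b, c, s or v), Uqcr, Cox4 to Cox8 or Atp5, the genes Sdha, Sdhb, Sdhc and Sdhd, and the protein-coding genes of mitochondrial DNA. It found 100 of the 15610 genes in the small intestine table and 106 of the 19647 genes in the lung table. Together these are 108 gene names, of which 98 were in both tissues, 2 only in the former and 8 only in the latter. The name Atp5o.1 of the small intestine table and Atp5o of the lung table are counted apart: GENCODE has 2 genes of the symbol Atp5o, and the tables do not say which row is which, so the names may stand for 107 genes. The small intestine members comprised 36 complex I subunits, 8 complex I assembly factors, 4 complex II, 8 complex III, 15 complex IV and 16 complex V genes, and 13 mitochondrially encoded genes. The lung members comprised 37, 8, 4, 8, 19, 17 and 13 genes of the same groups. Ndufa4 and Ndufa4l2 were grouped with complex IV, where the Ndufa4 protein is now placed.

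The study used C57BL/6J mice, an inbred laboratory strain, with no treatment named. It made 4 droplet libraries: singlets and multiplets of the small intestinal epithelium, and singlets and multiplets of the whole lung, with 1 library in each group. A multiplet is a cluster of 2 or more cells that passed through the droplet instrument as 1 barcode, and the series asks which cell types such clusters contain. The labels name no animal, age or sex and say only that tissue was dissociated mechanically and with enzymes, so the spread between animals is unknown and no test between libraries was possible.

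Oxidative phosphorylation makes most of the ATP of many animal cells. Electrons from NADH enter the inner mitochondrial membrane at complex I, and those from succinate enter at complex II, which is also an enzyme of the citric acid cycle. They pass through complex III to complex IV, which reduces oxygen, and the proton gradient built on the way drives ATP synthase, called complex V. All of complex II is encoded in the nucleus, while the catalytic cores of complexes I, III and IV and part of complex V are encoded by mitochondrial DNA, so the pathway needs both genomes. Several complex IV subunits have paralogs that are known from heart and skeletal muscle, testis or lung.

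Counts were unique molecular identifiers (UMIs), 1 per captured transcript molecule, read near the 3′ end and not divided by transcript length. Library totals ran from 47764845 UMIs in small intestine singlets to 66277622 in lung multiplets, and the median barcode held 8759 UMIs in small intestine singlets, 12603 in small intestine multiplets, 7896 in lung singlets and 11934 in lung multiplets. Libraries shared between 2 and 15 barcodes pairwise. Each marker list that names a class of the authors was highest in that class, Fibroblast-2 for the fibroblast list, as with 69043 counts per 1000000 UMIs (CPM) of 4 goblet markers in goblet cells; the progenitor classes had no list. Of the lists for cell types without a class, 3 neutrophil markers were highest in the lung class Macrophage, at 3138.8 CPM beside 982 CPM of 4 macrophage markers there, and at most 29.1 CPM in the other classes. The pericyte and smooth muscle list was highest in Fibroblast-2 at 587 CPM and the erythroid list in B cells at 56.4 CPM. Mesothelial cells, with 10 barcodes, and type I pneumocytes, with 6, were too few for the comparisons between classes. Intervals in brackets are 95% intervals that cover counting error only.

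Nuclear members took 5.14% of all UMIs in small intestine singlets and 1.71% in lung singlets. The mitochondrially encoded members took 4.48% and 3.996%. In multiplets the nuclear share was 4.89% for small intestine and 1.83% for lung, and the mitochondrially encoded share was 5.02% and 3.80%. The small intestine libraries thus held about as much of one genome's transcripts as of the other's, with a mitochondrial to nuclear ratio of 0.871 in singlets and 1.03 in multiplets. In the lung libraries the same ratio was 2.33 in singlets and 2.07 in multiplets.

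Between the 2 singlet tables the nuclear genes were nearly all higher in the small intestine. Of 85 nuclear members with enough counts, 73 were more than 1.5-fold higher and 2 more than 1.5-fold lower, where 29.0% of all genes counted were higher and 41.5% lower. Their median ratio was 2.87, against 0.838 over all genes, and the ratio of sums was 3.09 (3.08 to 3.09). By complex the ratio of sums was 2.51 for complex I, 4.64 for complex II, 3.62 for complex III, 2.99 for complex IV and 3.67 for complex V. Atp5g1, a gene for the membrane ring of ATP synthase, was at 1571 CPM in small intestine singlets and 193.1 CPM in lung singlets, an 8.13-fold difference. Cox5a, a structural subunit of complex IV, was at 1747 and 232 CPM, and Uqcrc1, a core protein of complex III, at 479 and 59.7 CPM. The 2 genes that were lower were the paralogs Cox6a2, with 7 UMIs in all small intestine singlets against 3761 in lung singlets, and Cox6b2, at 7.16 against 86.1 CPM. Tissue and library cannot be told apart here.

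The 13 mitochondrially encoded genes did not follow the nuclear ones across tissues. Their summed level was 1.12-fold higher in the small intestine (1.118 to 1.122), with 4 genes past 1.5-fold higher and 3 past 1.5-fold lower. mt-Nd3, a complex I subunit, was at 88.5 CPM in small intestine singlets and 431.8 CPM in lung singlets, and mt-Nd2 at 1438 and 2659 CPM. mt-Atp6, a subunit of the ATP synthase proton channel, was at 10076 and 6679.7 CPM, and mt-Co2, which takes electrons from cytochrome c into complex IV, at 7518 and 4821 CPM. The mitochondrial transcripts were thus divided differently among the genes in the 2 tissues. mt-Atp8, mt-Atp6 and mt-Co3 overlap or abut on the same strand, as do mt-Nd4l and mt-Nd4, and mt-Nd6 lies opposite mt-Nd5, so how reads were split between such neighbours is uncertain.

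**Figure D1:**
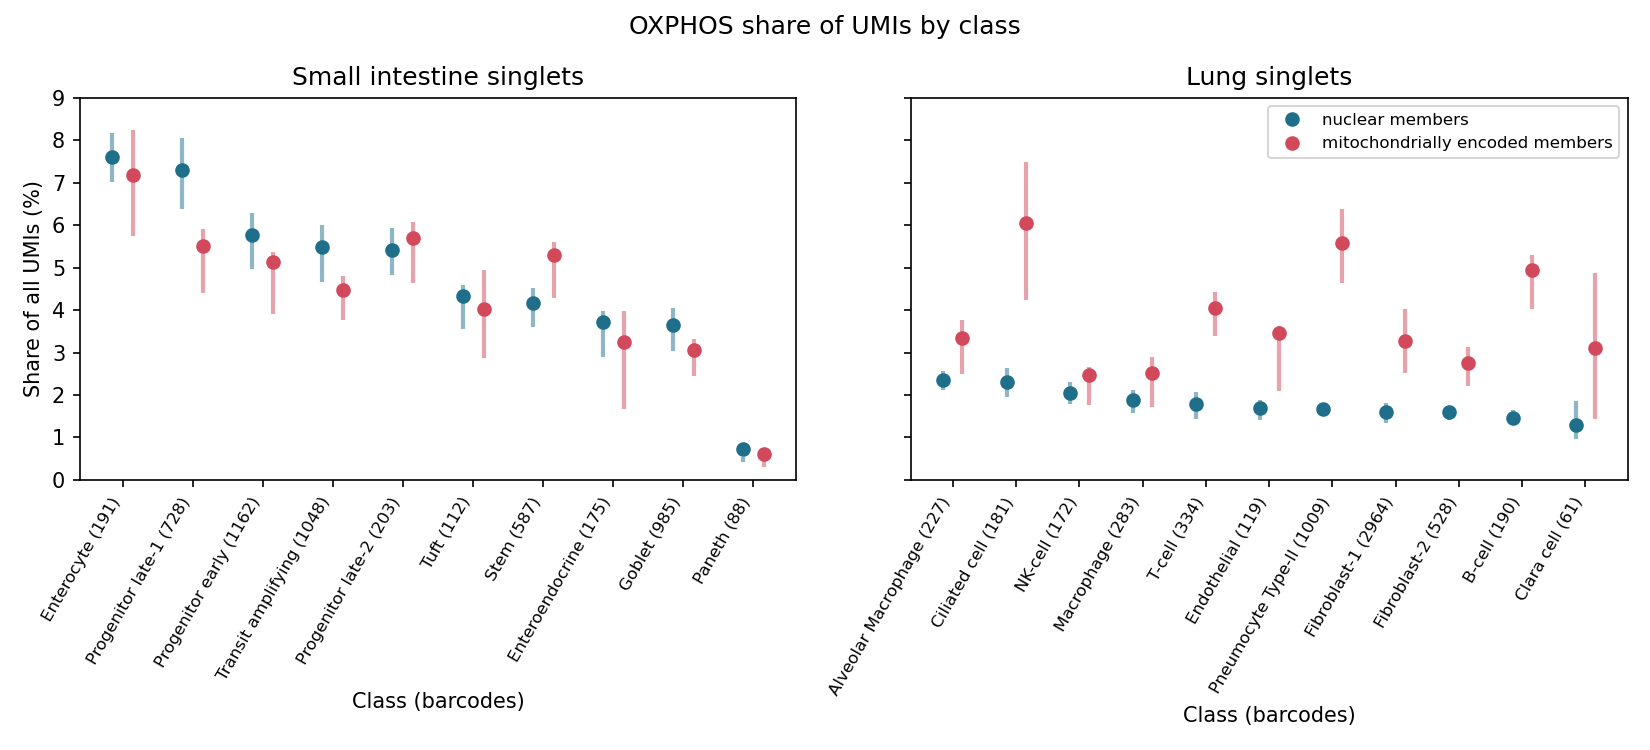
Share of all UMIs taken by nuclear (blue) and mitochondrially encoded (red) members in each singlet class, as the percentage over the summed UMIs of the class (points) and the middle 50% of single barcodes (lines). Classes are ordered by nuclear share and the number of barcodes is given in brackets: both shares are highest in enterocytes and lowest in Paneth cells of the small intestine, while in the lung the 2 shares have different orders.

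Within the small intestine both genomes' transcripts were highest in enterocytes. Nuclear members took 7.61% of UMIs in enterocytes (7.57 to 7.65; 191 barcodes) and 7.29% in the class Progenitor late-1 (728 barcodes). They took 5.78% in early progenitors, 5.48% in transit amplifying cells, 5.41% in Progenitor late-2 and 4.33% in tuft cells. Stem cells followed at 4.16%, enteroendocrine cells at 3.72%, goblet cells at 3.65% and Paneth cells at 0.721%. Single barcodes spread around these levels without closing the gap between the ends of the order: the middle 50% of enterocytes ran from 7.01 to 8.18%, and that of stem cells from 3.61 to 4.51%. Progenitor late-1 overlapped the enterocytes, with a middle 50% of 6.38 to 8.06%, and enteroendocrine and goblet cells overlapped each other, at 2.89 to 3.97% and 3.05 to 4.06%.

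The mitochondrially encoded share had a similar order, in which stem cells stood higher. It was 7.18% in enterocytes, 5.69% in Progenitor late-2, 5.51% in Progenitor late-1 and 5.30% in stem cells, and 0.614% in Paneth cells. Stem cells were the class with the highest mitochondrial to nuclear ratio, 1.27, and Progenitor late-1 the one with the lowest, 0.756. Over the 10 classes the nuclear and mitochondrial shares ran together, with Spearman's rho of 0.830 and Pearson's r of 0.923 as a description of classes that share a library. Among single barcodes within a class, rho ran from -0.520 in enterocytes to 0.465 in Paneth cells. This rho was negative in all classes but goblet, enteroendocrine and Paneth cells. Some barcodes carried far larger mitochondrial shares, up to 42.9%, and a high share is also widely used as a sign of damaged cells. Barcodes above 10% made up 14.1% of enterocytes, 13.7% of early progenitors, 8.35% of stem cells and 1.93% of goblet cells; their part in the class levels was measured once, by leaving them out, which gave an enterocyte over stem ratio of 1.325 for mitochondrially encoded genes instead of 1.356.

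The lung classes lay closer together and their 2 shares were not ordered alike. Nuclear members took 2.35% of UMIs in alveolar macrophages (2.34 to 2.37; 227 barcodes), 2.31% in ciliated cells, 2.04% in NK cells, 1.88% in macrophages and 1.78% in T cells. Endothelial cells were at 1.70%, type II pneumocytes at 1.67%, Fibroblast-1 at 1.61%, Fibroblast-2 at 1.59%, B cells at 1.45% and Clara cells at 1.28%. The classes from endothelial cells down to B cells differed by less than the span of the middle 50% of Fibroblast-1 barcodes, 1.35 to 1.81%. Mitochondrially encoded members took 6.05% in ciliated cells, 5.59% in type II pneumocytes, 4.94% in B cells and 4.05% in T cells. They took 3.34% in alveolar macrophages, 2.76% in Fibroblast-2, 2.53% in macrophages and 2.47% in NK cells. The ratio of the 2 ran from 1.21 in NK cells and 1.35 in macrophages to 3.35 in type II pneumocytes and 3.41 in B cells. Over the 11 lung classes rho was 0.0364 and r was 0.130.

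**Figure D2:**
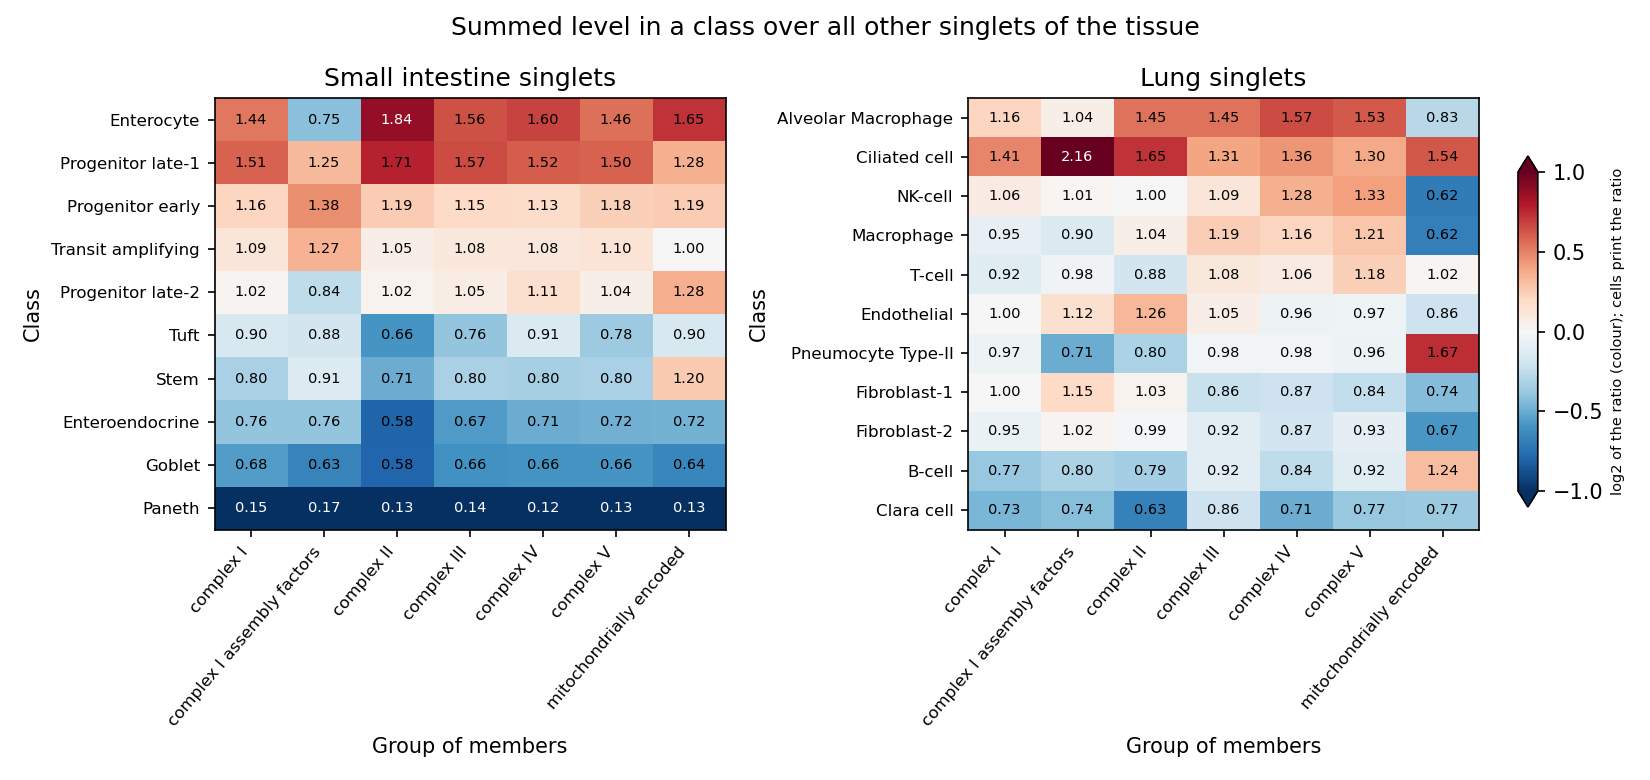
Summed CPM of each group of members in a class over that in all other singlets of the tissue, printed in each cell and coloured on a log2 scale. Red marks groups above the other classes, as complex II at 1.84 in enterocytes and mitochondrially encoded genes at 1.67 in type II pneumocytes, and blue marks groups below them.

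Each class was next set against all other singlets of its tissue, gene by gene. Enterocytes, the mature absorptive cells of the villus, had 42 of 85 counted nuclear members more than 1.5-fold higher and 3 lower, and 10 of 13 mitochondrially encoded genes higher, where 20.1% of all genes were higher and 44.0% lower. The summed nuclear level was 1.51 times (1.504 to 1.520) and the mitochondrially encoded level 1.65 times (1.64 to 1.66) that of the other classes, while the median gene was at 0.753. With levels scaled to that median, 72 nuclear and all 13 mitochondrially encoded members were past the limit. Progenitor late-1 had 46 of 86 nuclear members higher and 1 lower and no mitochondrially encoded gene past the limit in either direction, beside 14.0% of all genes higher and 27.6% lower. Its summed ratios were 1.52 for nuclear and 1.28 for mitochondrially encoded members, with the median gene at 0.906. Scaled to that median, 68 nuclear and 3 mitochondrially encoded members were higher.

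The summed levels of all 5 complexes were higher in these 2 classes, and complex II had the largest ratio. The summed ratio in enterocytes was 1.84 for complex II, 1.60 for complex IV, 1.56 for complex III, 1.46 for complex V and 1.44 for complex I. In Progenitor late-1 it was 1.71 for complex II and between 1.505 and 1.57 for the other complexes. The 8 complex I assembly factors, chaperones that help build complex I and are not part of it, did not follow the subunits in enterocytes. Their sum was 0.749 in enterocytes, close to the median gene there at 0.753. It was 1.25 in Progenitor late-1, 1.38 in early progenitors and 1.27 in transit amplifying cells. Ndufaf4 was at 113.5 CPM in early progenitors, 93.0 in transit amplifying cells and 58.4 in enterocytes.

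The genes of complex II show the order of the classes 1 by 1. Sdha, the flavoprotein that oxidizes succinate, was at 426 CPM (398 to 456) in enterocytes, 339 in Progenitor late-1, 303 in early progenitors, 283 in transit amplifying cells, 266 in Progenitor late-2, 244 in stem cells, 214 in tuft cells, 162 in enteroendocrine cells, 137 in goblet cells and 24.7 in Paneth cells. Sdhb, the iron-sulfur subunit, ran from 992 CPM in enterocytes and 893 in Progenitor late-1 to 312 in stem cells, 286 in goblet cells and 71.5 in Paneth cells. Sdhd, a membrane anchor, was at 842 CPM in enterocytes, 332 in stem cells and 58.5 in Paneth cells. The other anchor, Sdhc, had its highest levels side by side in Progenitor late-1 at 259 CPM and enterocytes at 258.5 CPM, with 140.0 in stem cells. All 4 genes were higher in enterocytes than in stem cells, with intervals that did not overlap.

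Complexes III, IV and V followed the same order with few exceptions. Uqcrfs1, the Rieske iron-sulfur protein of complex III, was at 1272.5 CPM in enterocytes, 1093 in Progenitor late-1, 442 in stem cells and 90.5 in Paneth cells. Uqcrc1 was at 834, 819.5, 305 and 58.5 CPM in the same classes. Cox5a was at 3028 CPM in enterocytes, 2744 in Progenitor late-1, 1088 in stem cells and 216 in Paneth cells, and Cox8a, the nuclear member with the highest level in both tissues, at 3135, 2945, 1786 and 332 CPM. Atp5b, the catalytic beta subunit of ATP synthase, was at 2236 CPM in Progenitor late-1, 2165 in enterocytes and 1284.5 in stem cells, and Atp5a1, the alpha subunit, at 1860.2, 1881 and 1042 CPM. Ndufa4 was at 2385 CPM in enterocytes and 239 in Paneth cells, Atp5h, a stalk subunit of ATP synthase, at 1765 and 158 CPM, and Cox5b at 1156 and 81.0 CPM. Enterocytes were the class of highest level for 19 of the 36 complex I subunits, 3 of 4 complex II, 7 of 8 complex III and 11 of the complex V genes counted, and Progenitor late-1 for 15 complex I subunits.

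Cox7a2l was an exception among the genes grouped by symbol with complex IV. Its level was highest in enteroendocrine cells at 586 CPM (541 to 634), then 523 in stem cells and 500.01 in tuft cells, and lower in enterocytes at 296 and goblet cells at 255 CPM. In the lung it was highest in T cells at 536 CPM and macrophages at 489, and lowest in ciliated cells at 149 CPM. Cox6c, a small complex IV subunit, was at 2143 CPM in enterocytes and then 1916 in tuft cells, above all progenitor classes. Ndufaf3, an early assembly factor, was also high in tuft cells, at 112 CPM (88.6 to 139.5) beside 39.1 to 62.3 in the other classes except Paneth cells, and it overlaps Impdh2 on the genome.

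Stem cells had 17 of 86 nuclear members more than 1.5-fold lower and 1 higher than the other classes, and 1 mitochondrially encoded gene higher, where 19.2% of all genes were higher and 16.0% lower. Their count of lower nuclear members was thus near the share over all genes. Their summed nuclear ratio was 0.797 (0.793 to 0.801) and their mitochondrially encoded ratio 1.202, with the median gene at 1.07, so the 2 genomes' transcripts lay on opposite sides of the other classes. Early progenitors had 3 of 86 nuclear members higher and 1 lower, beside 6.78% and 14.3% of all genes. Transit amplifying cells had 2 of 86 higher and 1 lower, beside 18.5% and 16.4%. Progenitor late-2 had 1 of 85 higher and 3 lower, beside 15.2% and 23.9%. These 3 classes had no mitochondrially encoded gene past the limit.

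Goblet and enteroendocrine cells were low in both groups. Goblet cells, the mucus producers, had 48 of 86 nuclear members lower and none higher, and 12 of 13 mitochondrially encoded genes lower, beside 14.4% of all genes higher and 29.3% lower. Their summed ratios were 0.664 for nuclear and 0.636 for mitochondrially encoded members, with the median gene at 0.847, and only 15 nuclear and 5 mitochondrially encoded members stayed past the limit after scaling to that median. Enteroendocrine cells, which make gut hormones, had 32 of 84 nuclear members lower and 1 higher and 5 mitochondrially encoded genes lower, beside 31.9% of all genes higher and 14.2% lower. Here the median gene was at 1.196, and scaling to it put 63 nuclear and 12 mitochondrially encoded members below the limit. Tuft cells, chemosensory cells of the epithelium, had 16 of 82 nuclear members lower and 2 higher and 1 mitochondrially encoded gene lower, beside 33.0% of all genes higher and 18.5% lower, so their count of lower members was near that of all genes. Their median gene was at 1.17, and scaling to it put 36 nuclear and 7 mitochondrially encoded members below the limit. Genes of the dissociation response, measured alongside as a sign of handling, were 4.57 times as high in goblet cells and 3.12 times as high in enteroendocrine cells as in the other classes, with 12 of 12 past the limit in each; their part in the low values was not tested.

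In Paneth cells, which secrete antimicrobial peptides, all 85 counted nuclear members and all 13 mitochondrially encoded genes were lower, but so were 96.1% of all genes, with 1.69% higher. The summed ratios of 0.134 and 0.132 stand beside a median gene at 0.184 in a class where 5 marker genes summed to 499340 CPM, so the count says nothing about the members. Per barcode, Paneth cells held a median of 128 nuclear and 96.5 mitochondrially encoded UMIs, in a median depth of 25594 UMIs. Enterocytes held 855 and 743 in a depth of 11039, and stem cells 246 and 306 in a depth of 6199. Paneth cells were therefore lowest in counts per barcode as well as in share.

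Over all 10 small intestine classes, the median ratio of highest to lowest class was 10.3 for the 82 nuclear members with at least 20 UMIs observed or expected in every class, 11.8 for the mitochondrially encoded genes and 9.35 for all genes counted in the same way. With Paneth cells left out these medians were 2.32, 2.63 and 3.20. The members therefore spanned no wider a range than other genes once Paneth cells were set aside. In all, 109 pairs of a member and a small intestine class were past 1.5-fold higher and 238 lower, or 162 and 197 with levels scaled to the median gene of each class.

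In the lung, alveolar macrophages, which clear surfactant and particles from the air spaces, had 28 of 90 nuclear members higher and 3 lower and 2 mitochondrially encoded genes lower, where 25.8% of all genes were higher and 34.8% lower. Their count of higher nuclear members was thus near the share over all genes. Their summed nuclear ratio was 1.41 (1.40 to 1.42) and their mitochondrially encoded ratio 0.827, with the median gene at 0.955. The ratio was uneven across the complexes: 1.57 for complex IV, 1.53 for complex V, 1.45 for complexes II and III, and 1.16 for complex I. Cox5a was at 741 CPM in alveolar macrophages (712 to 770), 367 in macrophages, 366 in ciliated cells, 358 in NK cells, 313 in T cells, 242 in endothelial cells, 234 in B cells, 202 in type II pneumocytes, 198.5 in Clara cells, 161 in Fibroblast-1 and 139 in Fibroblast-2. Cox4i1, the general form of the largest nuclear subunit of complex IV, was at 1138 CPM in alveolar macrophages and 560 in Fibroblast-1. Sdhc was at 104 CPM in alveolar macrophages and 22.0 in B cells. The ATP synthase genes Atp5e and Atp5l, with Cox7c of complex IV, were also highest in alveolar macrophages, at 825, 703 and 680.3 CPM, and their lowest classes were at 429, 356 and 329 CPM. Cox8a and Atp5h were highest in NK cells, at 1123 and 767 CPM, and Cox6c and Ndufa4 in ciliated cells, at 915 and 781 CPM.

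Ciliated cells of the airways, whose beating cilia consume ATP, had 25 of 88 nuclear members higher and 6 lower and 5 mitochondrially encoded genes higher, beside 34.7% of all genes higher and 26.8% lower, so their count of higher nuclear members was below the share over all genes. Their summed ratios were 1.37 for nuclear and 1.54 for mitochondrially encoded members, with the median gene at 1.13, and scaled to it 17 nuclear members were higher and 7 lower. The assembly factors of complex I had the largest sum, 2.16 times that of the other classes, followed by complex II at 1.65, complex I at 1.41, complex IV at 1.36, complex III at 1.31 and complex V at 1.30. Ciliated cells were the class of highest level for 16 of 37 complex I subunits. Ndufc2, a membrane subunit of complex I, was at 661 CPM in ciliated cells (625 to 698), 355 in type II pneumocytes, 298.5 in endothelial cells and 97.6 in B cells. Ndufaf3 was at 148 CPM in ciliated cells and between 15.1 and 43.4 in the other classes, and Ndufaf8, another assembly factor, at 138 CPM against 35.1 to 82.4. Sdhd was at 194 CPM in ciliated cells and 100 in the next class, alveolar macrophages. Ndufa12, another complex I subunit, was at 223 CPM in ciliated cells and 53.6 in B cells, and Uqcr11, a small complex III subunit, at 455 and 114 CPM. Barcodes above 10% mitochondrially encoded UMIs made up 12.7% of this class; their part was not tested.

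Type II pneumocytes, the surfactant-producing cells of the alveolus, had 4 of 92 nuclear members higher and 9 lower, but 10 of 13 mitochondrially encoded genes higher, beside 12.2% of all genes higher and 57.9% lower. The summed ratios were 0.966 for nuclear and 1.67 (1.661 to 1.670) for mitochondrially encoded members. The median gene was at 0.591 in this class, where 4 surfactant and lamellar body markers summed to 228960 CPM, and with levels scaled to that median 49 nuclear and all 13 mitochondrially encoded members were past the limit. Against Fibroblast-1 the nuclear sum was 1.04-fold and the mitochondrially encoded sum 1.71-fold, or 1.60 and 2.63 on the median scale.

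NK cells and the class Macrophage had summed mitochondrially encoded levels below the other classes. NK cells had 12 of 83 nuclear members higher and 6 lower and 9 mitochondrially encoded genes lower, beside 33.4% of all genes higher and 30.4% lower; their summed ratios were 1.196 and 0.615. Scaled to their median gene, at 1.14, 3 nuclear members were higher and 10 lower, so the balance of the nuclear counts turned, while 12 mitochondrially encoded genes were lower. The class Macrophage had 9 of 88 higher, 9 lower and 10 mitochondrially encoded genes lower, beside 21.5% and 36.7%, with ratios of 1.10 and 0.621. Scaled to its median gene, at 0.869, the counts were 23 higher, 5 lower and 8 mitochondrially encoded genes lower. In this class 39 of 283 barcodes held at least 3 UMIs of the neutrophil markers, a split chosen after the values were seen. The 244 others had 11.7 CPM of these markers, ratios of 1.14 (1.13 to 1.15) and 0.611 (0.606 to 0.616), and counts of 11 higher, 8 lower and 10 mitochondrially encoded genes lower. In the 39 the ratios were 0.824 and 0.701, with no nuclear member higher and 24 of 76 lower, beside 29.4% of all genes higher and 22.1% lower. The summed mitochondrially encoded level was thus below that of the other classes in both sets of barcodes, and the nuclear level lay on opposite sides.

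B cells had 1 of 82 higher, 21 lower and 1 mitochondrially encoded gene higher, beside 27.0% and 36.7%, with ratios of 0.846 and 1.24. T cells had 6 of 87 higher, 9 lower and 1 mitochondrially encoded gene lower, beside 21.0% and 38.8%, or 10 higher, 5 lower and no mitochondrially encoded gene after scaling to their median gene. The lymphocyte classes therefore did not form 1 group: B and NK cells lay on opposite sides for mitochondrially encoded genes, with T cells at 1.02.

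Fibroblast-1, the largest class with 2964 barcodes, had 5 of 93 nuclear members higher and 9 lower and 5 mitochondrially encoded genes lower, beside 27.2% and 29.1% of all genes, with a mitochondrially encoded ratio of 0.739. Fibroblast-2 had 1 of 90 higher and 4 lower and 7 mitochondrially encoded genes lower, beside 16.7% and 21.8%, with a ratio of 0.669. Endothelial cells had 2 of 84 higher and 2 lower and 1 mitochondrially encoded gene lower, beside 32.9% and 15.9%, or none higher, 11 lower and 5 mitochondrially encoded genes lower after scaling to a median gene at 1.23. Clara cells, the secretory cells of the airways, had none of 85 higher and 27 lower and 1 mitochondrially encoded gene lower, beside 3.11% of all genes higher and 83.5% lower. Their median gene was at 0.400, beside 3 secretory markers that summed to 520400 CPM, and relative to it 73 nuclear and 13 mitochondrially encoded members were higher. Over all lung classes 109 pairs were past 1.5-fold higher and 141 lower, or 241 and 121 after scaling to the median gene of each class, so the balance of these counts depends on the scaling.

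Across the 11 lung classes the median ratio of highest to lowest class was 2.37 for 82 nuclear members and 2.90 for mitochondrially encoded genes, against 6.15 for all genes counted in the same way. Without Clara cells the medians were 2.06, 2.90 and 4.38. The median member thus varied less between lung classes than the median gene did, and among the members counted the widest ranges were those of Cox6a2 and Cox6b2.

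**Figure D3:**
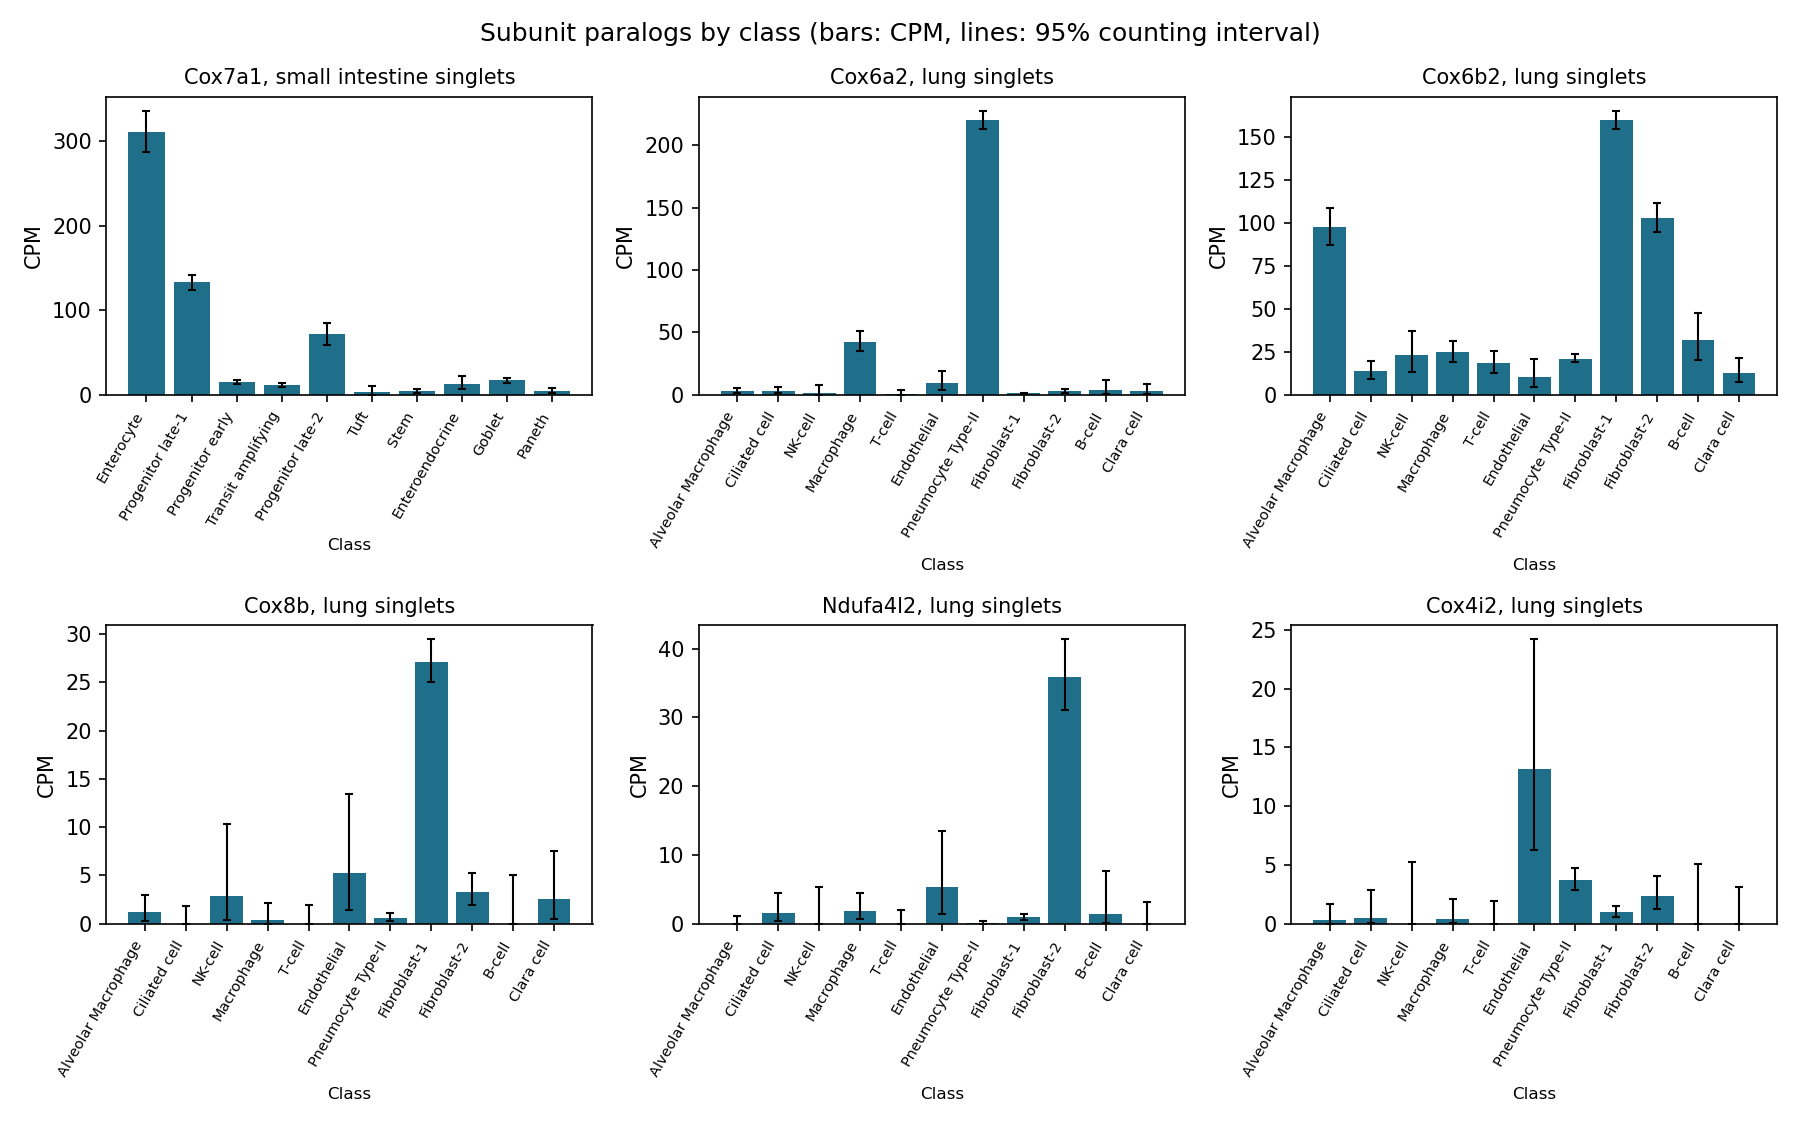
CPM of 6 paralogs of complex IV subunits in each singlet class (bars, axes from 0) with 95% counting intervals (lines). Cox7a1 goes from 4.18 in stem cells to 311 in enterocytes, Cox6a2 stands at 220 in type II pneumocytes with macrophages next at 42.3, and Cox6b2 and Cox8b are highest in Fibroblast-1.

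Cox7a1, the form of subunit 7a known from heart and skeletal muscle, had the widest range of any counted small intestine member. Its level was 311 CPM in enterocytes (287 to 336), 133 in Progenitor late-1, 71.5 in Progenitor late-2, 17.2 in goblet cells, 14.7 in early progenitors, 13.2 in enteroendocrine cells, 11.7 in transit amplifying cells, 4.77 in Paneth cells, 4.18 in stem cells and 2.83 in tuft cells. Tuft cells held 2 UMIs, so the ratio of 109.7 between the ends is poorly fixed. The general form, Cox7a2, was at 1687 CPM in enterocytes and 630 in stem cells, a far smaller difference. Cox7a1 therefore made up 15.6% (14.5 to 16.7) of the UMIs of the pair in enterocytes, 8.61% in Progenitor late-1, 6.55% in Progenitor late-2, 1.40% in early progenitors and 0.660% in stem cells. With every barcode thinned to 1500 UMIs, 34.0% of enterocytes and 17.7% of Progenitor late-1 held a Cox7a1 UMI, against 0.681% of stem cells; unthinned, these shares were 88.0%, 58.4% and 2.56% at median depths of 11039, 9297 and 6199 UMIs. In the lung its highest level was 12.9 CPM, in alveolar macrophages.

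The ATP synthase ring subunit c is made from 3 genes, Atp5g1, Atp5g2 and Atp5g3, whose mature proteins are the same. Their shares of the combined UMIs differed between stem cells and enterocytes. In stem cells they were 34.3, 45.01 and 20.7%, in Progenitor late-1 45.04, 27.3 and 27.7%, and in enterocytes 45.4, 18.6 and 36.0%. Atp5g3 went from 633.5 CPM in stem cells to 1697 in enterocytes and Atp5g1 from 1053 to 2140.4, while Atp5g2 went the other way, from 1380.2 to 874 CPM. Goblet, enteroendocrine and tuft cells, with Atp5g2 at 38.6, 41.2 and 40.7%, lay closer to stem cells than to enterocytes. In lung singlets as a whole the shares were 30.0, 46.3 and 23.7%, and B cells had the most Atp5g2, 59.2%.

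The bases before the RefSeq starts of these genes are shown because their transcripts moved apart although the mature protein is the same. Each line gives the 120 bases upstream of the start on GRCm38.p6, read 5′ to 3′ on the gene's own strand: Atp5g1 at chr11:96075632-96075751, Atp5g2 at chr15:102671048-102671167 and Atp5g3 at chr2:73911327-73911446, all on the minus strand. Capitals mark a full match to the binding motif of nuclear respiratory factor 1 (NRF1), the letters GC followed by GCATGCGC, which only Atp5g2 holds among the 3.
Atp5g1: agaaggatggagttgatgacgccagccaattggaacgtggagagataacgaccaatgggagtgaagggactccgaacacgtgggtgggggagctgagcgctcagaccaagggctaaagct
Atp5g2: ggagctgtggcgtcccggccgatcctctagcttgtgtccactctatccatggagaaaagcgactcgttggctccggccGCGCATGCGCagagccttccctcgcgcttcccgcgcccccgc
Atp5g3: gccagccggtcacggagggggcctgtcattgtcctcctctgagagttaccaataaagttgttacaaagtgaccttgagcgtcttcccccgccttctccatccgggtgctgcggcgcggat
Motifs were searched on both strands from 250 bases before to 50 after the start, and a match says only that the letters are there. Of the 95 nuclear names 78 matched the RefSeq promoter table by symbol. The full NRF1 motif was in 7 of them (8.97%), against 1.57% of 18447 genes of the count tables, and its inner part GCATGCGC, which the full motif contains, was in 12 (15.4%) against 4.09%. The ETS motif CCGGAAG, bound by GABP among others, was in 18 (23.1%) against 13.6%, and the YY1 motif AAGATGGCG in 7 (8.97%) against 2.16%. TATAAA was in 8 (10.3%) against 9.23%, and CAGCTG, an E-box of the myogenic type, in 6 (7.69%) against 16.4%.

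Cox6a2, the heart and skeletal muscle form of subunit 6a, was the lung member with the widest range. It lies at chr7:128205435-128206387 on the minus strand (GRCm38, GENCODE) and overlaps Itgad on the other strand. No source used here states whether counting used strand, so whether reads of Itgad could enter the Cox6a2 count is not known here. Type II pneumocytes held 220 CPM (213 to 228; 3571 UMIs), macrophages 42.3, endothelial cells 9.21, and the 8 other classes between 1.06 and 4.13 CPM. The general form, Cox6a1, was at 186 CPM in type II pneumocytes and 309 in NK cells, so that Cox6a2 made up 54.2% (53.0 to 55.4) of the pair in type II pneumocytes, 15.2% in macrophages and 0.574% in Fibroblast-1. Thinned to 1500 UMIs, 24.0% of type II pneumocytes held a UMI of it, against 2.83% of macrophages and 0.270% of Fibroblast-1; unthinned, 80.9% of type II pneumocytes did, against 0.599% of T cells, at median depths of 16009 and 5039.

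The 2 classes carried Cox6a2 in different ways. In type II pneumocytes, 633 of 1009 barcodes had at least 2 UMIs, and in macrophages 12 of 283 barcodes held 107 of the 111 UMIs (96.4%). Those 12 barcodes, a set chosen by their counts after the values were seen, had no UMI of the macrophage markers C1qa and C1qb, which were at 241 and 227 CPM in the 267 macrophage barcodes with no Cox6a2. Of the other macrophage markers, Csf1r was at 17.0 against 321 CPM. Cd68 was at 153 CPM (90.9 to 242) against 227 CPM, with a UMI in 9 of the 12, so not every macrophage marker was missing. The 12 barcodes held 2088 CPM of Siglech, a lectin of plasmacytoid dendritic cells, against 15.0 CPM, and 11 of the 12 had it. Ccr9 was at 1406 against 13.4 CPM, Bst2 at 4483 against 202 and Tcf4 at 1645 against 142, all genes known from the same dendritic cells. Sftpc, the surfactant gene of type II pneumocytes, was at 18791 CPM in them against 1056, and Sftpb, another surfactant gene, at 716 against 25.5 CPM, from 84 UMIs in 4 of the 12. In type II pneumocytes with Cox6a2, Siglech had 1 UMI in all.

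Cox6b2, the form of subunit 6b known from testis, was highest in Fibroblast-1 at 159.7 CPM (154 to 165), followed by Fibroblast-2 at 103 and alveolar macrophages at 97.3. B cells were at 31.6, macrophages at 24.8, NK cells at 22.9, type II pneumocytes at 21.1, T cells at 18.5, ciliated cells at 13.7, Clara cells at 12.8 and endothelial cells at 10.5 CPM. It made up 36.5% of the pair with Cox6b1 in Fibroblast-1, 26.5% in Fibroblast-2, 13.4% in alveolar macrophages and 6.46% in type II pneumocytes. Thinned to 1500 UMIs, 19.5% of Fibroblast-1 barcodes held it, against 2.97% of type II pneumocytes. In the small intestine Cox6b2 had 342 UMIs in all singlets, with early progenitors, transit amplifying and stem cells at 12.3, 11.3 and 10.6 CPM and enterocytes at 0.499 CPM from 1 UMI.

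Cox8b, the muscle form of subunit 8, was at 27.2 CPM in Fibroblast-1 (25.01 to 29.5; 586 UMIs), and no other class exceeded 5.26 CPM. That is 4.18% of the pair with Cox8a, and 4.42% of Fibroblast-1 barcodes held a UMI of it after thinning, or 15.9% without. T cells, B cells and ciliated cells had none. Ndufa4l2, a gene known to be induced by hypoxia, was at 36.0 CPM in Fibroblast-2 (31.1 to 41.4), 5.26 in endothelial cells and 0.927 in Fibroblast-1. The endothelial value came from 4 UMIs, all in 2 of 119 barcodes, which also held Cox4i2. In Fibroblast-1, 8 of its 20 UMIs were in 3 barcodes with at least 2 UMIs of Cox4i2. Ndufa4l2 made up 8.45% of its pair with Ndufa4 in Fibroblast-2, where 4.17% of barcodes held it after thinning, and 46 of 528 barcodes held 64.8% of the 196 UMIs. Of these 46 barcodes, 3 also held Cox4i2, with 9 UMIs. Cox7b2 had 26 UMIs in all lung singlets, 22 of them in Fibroblast-1.

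The upstream bases of the paralog pairs with a RefSeq entry are shown because each pair is split between classes. They are the 120 bases before the start on GRCm38.p6: Cox7a1 at chr7:30184051-30184170 on the plus strand, and, on the minus strand, Cox7a2 at chr9:79759854-79759973, Cox6b1 at chr7:30626115-30626234, Cox6b2 at chr7:4753095-4753214, Cox8a at chr19:7217617-7217736 and Cox8b at chr7:140900447-140900566. Capitals mark a full match to CCGGAAG or its reverse complement in Cox6b1 and to CAGCTG in Cox8b.
Cox7a1: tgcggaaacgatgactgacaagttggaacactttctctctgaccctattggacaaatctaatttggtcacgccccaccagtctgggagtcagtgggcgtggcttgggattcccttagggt
Cox7a2: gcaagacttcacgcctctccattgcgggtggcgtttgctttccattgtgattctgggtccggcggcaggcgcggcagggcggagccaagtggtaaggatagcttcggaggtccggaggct
Cox6b1: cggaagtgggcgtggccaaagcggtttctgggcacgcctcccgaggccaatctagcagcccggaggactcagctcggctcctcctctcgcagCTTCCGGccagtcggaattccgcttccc
Cox6b2: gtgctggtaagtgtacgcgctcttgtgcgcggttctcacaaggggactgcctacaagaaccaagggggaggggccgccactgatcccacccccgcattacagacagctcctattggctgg
Cox8a: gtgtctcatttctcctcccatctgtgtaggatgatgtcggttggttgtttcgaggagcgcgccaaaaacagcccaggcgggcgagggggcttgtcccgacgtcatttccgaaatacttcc
Cox8b: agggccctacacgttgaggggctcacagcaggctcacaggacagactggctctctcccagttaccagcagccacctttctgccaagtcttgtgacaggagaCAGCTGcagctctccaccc
Cox7a1, Cox7a2 and Cox6b2 hold none of the searched motifs in these windows, and the ETS match of Cox8a straddles the window's end or lies past the start and is not capitalized.

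Cox4i2, the form of subunit 4 known from lung and from pericytes, was sparse in singlets, with 107 UMIs in all. Endothelial cells had 13.2 CPM, from 10 UMIs in 2 of 119 barcodes, and those 2 barcodes had 813 CPM of Pdgfrb, a pericyte marker, against 2.67 in the other endothelial barcodes. The same 2 barcodes had no UMI of Acta2, Tagln or Myh11, and Higd1b was in 1 of them. Their level of the endothelial marker Pecam1 was 813 CPM, against 882 CPM in the other endothelial barcodes. In Fibroblast-1, 3 barcodes held 18 of 21 UMIs, and all 3 had Pdgfrb and Ndufa4l2. Tagln was lower in these 3, at 66.5 CPM against 366 CPM in Fibroblast-1 barcodes with no Cox4i2. Type II pneumocytes held 60 UMIs spread over 55 barcodes, at 3.70 CPM, and these barcodes had no UMI of Pdgfrb or Higd1b. Fibroblast-2 held 13 Cox4i2 UMIs, 9 of them in 3 of the 46 barcodes with at least 2 UMIs of Ndufa4l2. In those 46 Pdgfrb was at 186 CPM, against 75.9 CPM in Fibroblast-2 barcodes with no Ndufa4l2. Outside Fibroblast-2, Cox4i2 thus appeared mainly in a few barcodes with high Pdgfrb and, at about 1 UMI each, in a small share of type II pneumocytes.

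The lists of pathways that feed the respiratory chain also had higher sums in enterocytes, where, as above, 20.1% of all genes were past 1.5-fold higher and 44.0% lower and the median gene was at 0.753. The 13 citric acid cycle genes summed to 2.25 times the level of the other classes, with 6 past 1.5-fold higher and 1 lower; Mdh2, mitochondrial malate dehydrogenase, was at 3960 CPM against 977. The 14 fatty acid oxidation genes summed to 2.30 times, with 11 higher and none lower; Acadl was at 355 against 85.3 CPM and Acaa2 at 765 against 209 CPM. Of 13 counted glycolysis genes 9 were higher and 2 lower. Their sum was 2.17 times as high, and Gapdh was at 623 against 181 CPM. The electron carrier and transporter list summed to 1.67 with 6 of 16 higher and 3 lower, and Cycs, cytochrome c, was at 445 against 182 CPM. AA467197, which encodes a small protein related to Ndufa4, was at 122 against 24.98 CPM.

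Genes that copy and transcribe mitochondrial DNA had a lower sum in enterocytes, 0.564, with 1 of 11 higher and 6 lower, a count near the 44.0% of all genes that were lower there: Tfam, which packages mitochondrial DNA, was at 39.9 against 102 CPM, and Ssbp1, which binds its single strands, at 47.9 against 140.3 CPM. They were highest in transit amplifying cells, where the sum was 1.44 and Tfam was at 157 against 81.8 CPM, and in early progenitors, where it was 1.42. In stem cells the sum was 1.201, beside 0.710 for the citric acid cycle and 0.594 for glycolysis, where Ldha, lactate dehydrogenase, was at 503 against 1291 CPM. Ppargc1a, a coactivator of mitochondrial biogenesis, was at 39.9 CPM in enterocytes against 9.29, and Esrra, its nuclear receptor partner, at 164 against 58.6 CPM. The 11 biogenesis regulators as a list summed to 1.11 in enterocytes, with 4 of 10 higher and 5 lower, also near that share.

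In the lung several of these lists were higher, as the nuclear members were, in alveolar macrophages and ciliated cells. Alveolar macrophages had the electron carrier and transporter list at 1.98, glycolysis at 1.86, fatty acid oxidation at 1.34 and the citric acid cycle at 1.18; Ucp2, an inner membrane carrier, was at 822 CPM against 76.0 in the other classes. Beside 34.7% of all genes higher and 26.8% lower and a median gene at 1.13, ciliated cells had the citric acid cycle at 1.77 with 6 of 13 higher and none lower, the carriers at 1.83 with 9 of 14 higher and none lower, and the pyruvate dehydrogenase list at 2.11. Mpc1, part of the mitochondrial pyruvate carrier, was at 785 CPM against 181, and Slc25a5, an ADP and ATP carrier, at 918 against 241. In type II pneumocytes, where mitochondrially encoded genes were high, the citric acid cycle was at 0.899, the carriers at 0.769 and the mitochondrial DNA list at 0.785, with the median gene at 0.591.

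Of the 13 mitochondrially encoded genes, 12 were highest in enterocytes among the small intestine classes, as mt-Atp6 at 15508 CPM and mt-Co1 at 12869 CPM, and mt-Nd6 was highest in stem cells at 68.1 CPM. In the lung 6 were highest in ciliated cells, 5 in type II pneumocytes and 2 in B cells; mt-Nd2 ran from 6219.8 CPM in ciliated cells to 1138 CPM in macrophages, and mt-Nd5 from 1245 CPM in type II pneumocytes to 345 CPM in NK cells. The division of mitochondrial transcripts among the genes differed too. In small intestine singlets mt-Atp6 took 22.5% of mitochondrially encoded UMIs, mt-Co1 and mt-Co2 16.8% each, mt-Cytb 13.1%, mt-Co3 11.99% and mt-Nd4 8.31%. mt-Co1, the catalytic subunit of complex IV, took 26.1% in tuft cells, 22.4% in goblet cells and 14.4% in early progenitors. In lung singlets mt-Co1 took 19.4%, mt-Atp6 16.7%, mt-Co3 16.6%, mt-Co2 12.1% and mt-Cytb 10.2%. Ciliated cells had more mt-Nd2, 10.3%, and mt-Nd4, 12.7%, and less mt-Co2, 9.35%, than lung singlets as a whole. mt-Cytb, the core of complex III, took 7.52% in macrophages, 7.73% in NK cells and 7.94% in T cells, and 12.4% in ciliated cells.

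**Figure D4:**
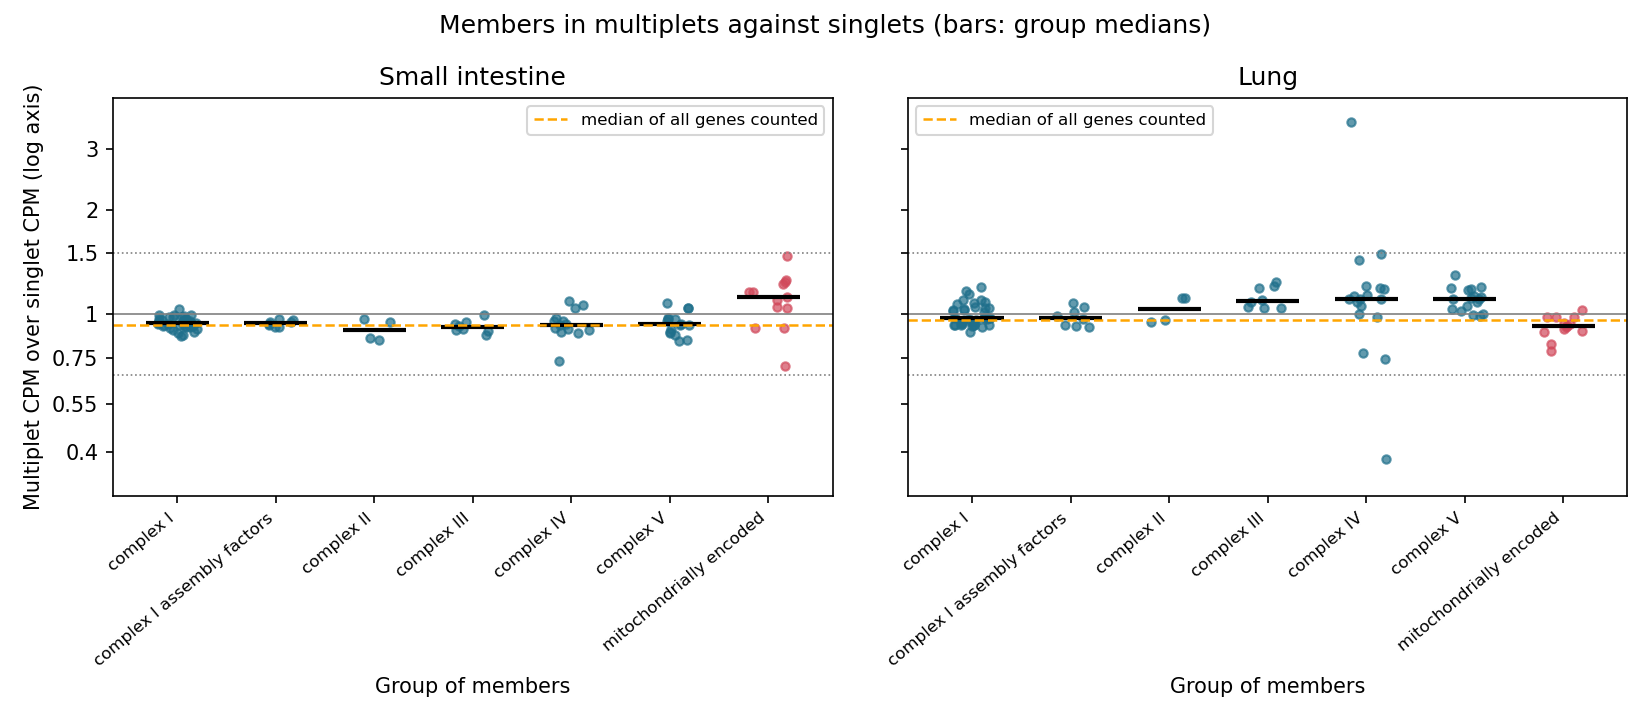
Ratio of multiplet to singlet CPM for each counted member (points) by group, on a log axis, with group medians (black bars), the 1.5-fold limits (dotted) and the median of all genes counted (dashed). Nuclear members of the small intestine lie close to the median gene at 0.933 and mitochondrially encoded ones mostly above 1, while in the lung Cox4i2 at 3.57 and Cox8b at 0.384 stand apart within complex IV.

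In multiplets of the small intestine the nuclear members stayed close to singlet levels. Their summed ratio was 0.9504 (0.949 to 0.952), with 7 of 86 counted members above 1 and 79 below, and the median gene of the table was at 0.933; scaled to that median the sum was 1.02. No nuclear or mitochondrially encoded member passed 1.5-fold in either direction, where 1.42% of all genes were higher and 3.87% lower. By complex the ratio ran from 0.900 for complex II to 0.966 for complex IV. Sdhd was at 461 CPM in singlets and 388 in multiplets, Sdha at 253 and 216, and Atp5b at 1538 and 1298. Cox4i1 was at 1634 and 1783 CPM and Cox5a at 1747 and 1862, and were among the few that were higher. Atp5o.1, a stalk subunit by its symbol, was at 1.07, Atp5g3 at 1.05 and Cox7a1 at 1.04 (0.983 to 1.11), whose interval spans 1. Atp5s was at 0.835, and Cox6b2 had the lowest nuclear ratio, 0.734 (0.623 to 0.864).

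Mitochondrially encoded genes were higher in small intestine multiplets, at 1.12 times the singlet level (1.119 to 1.123), with 10 of 13 above 1. mt-Nd3 was at 88.5 CPM in singlets and 130.2 in multiplets, mt-Nd4 at 3719 and 4677, mt-Co3 at 5365 and 6660.1, and mt-Nd2 at 1438 and 1761. mt-Nd1 and mt-Co1 were at 1.16 times, mt-Nd5 at 1.12, mt-Co2 at 1.10, mt-Atp6 at 1.05 and mt-Cytb at 1.04. mt-Nd4l, mt-Nd6 and mt-Atp8 were lower, at 0.913, 0.913 and 0.708. Barcodes above 10% mitochondrially encoded UMIs were 10.1% of multiplets and 7.67% of singlets, and without them the ratio was 1.10. The mean hides a shift in composition, since mt-Nd3 and mt-Atp8 moved in opposite directions.

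In the lung the signs were reversed. Nuclear members summed to 1.07 (1.069 to 1.075) in multiplets, with 57 of 92 above 1, against a median gene at 0.963, and mitochondrially encoded genes to 0.952 (0.9501 to 0.954), with 1 of 13 above 1. Complexes III, IV and V were at 1.12, 1.11 and 1.11, with all 8 complex III genes and 14 of 17 complex V genes above 1, while complex I was at 1.0002. Past 1.5-fold were Cox4i2, higher at 3.57 (2.89 to 4.45), and Cox8b, lower at 0.384 (0.332 to 0.442), so 1 of 92 in each direction where 15.9% of all genes were higher and 13.8% lower. Cox5a, at 232 CPM in singlets and 348 in multiplets, had a ratio of 1.496 (1.46 to 1.53), just under the limit. Atp5g2 was at 298 and 387 CPM, Uqcrq at 199 and 246, Cox6a2 at 66.4 and 51.4 and Cox6b2 at 86.1 and 63.8. Cox7a1 had a ratio of 1.44 (1.19 to 1.74) at 3.11 and 4.47 CPM, and Ndufa5 and Ndufaf3 were at 0.887 and 0.919. Among mitochondrially encoded genes mt-Co2 was at 1.03, and mt-Nd6 at 0.786 was the lowest.

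Multiplets hold other proportions of cell types than singlets, so each multiplet was also fitted as a mixture of the authors' class profiles on genes that are not members, and the members were predicted from the fit. The fit gave Paneth cells 10.5% of multiplet UMIs against 4.83% of singlet UMIs, and in the lung the class Macrophage 19.1% against 4.63%, alveolar macrophages 17.9% against 6.02% and Fibroblast-1 15.6% against 38.1%. The profile of the class Macrophage includes its neutrophil marker UMIs, and these markers were at 162 CPM in all lung singlets and 1650.3 CPM in all lung multiplets; their part in the fitted share was not tested. Observed over predicted nuclear UMIs were 1.003 (1.001 to 1.004) for small intestine and 1.003 (1.002 to 1.005) for lung multiplets. Lung mitochondrially encoded UMIs were at 1.01. Singlets fitted in the same way had nuclear UMIs at 1.02 (1.019 to 1.021) of the prediction for small intestine and 1.002 for lung, so for small intestine the fit was off by more in singlets than in multiplets. The class profiles were made from these same singlets, so their fit does not show how far another library would depart. Multiplets in which 1 class had at least 85% of the fitted weight still differed from singlets of that class in nuclear share, in most classes. Goblet cells, with a multiplet over singlet ratio of 0.995 (0.988 to 1.001), and alveolar macrophages, at 1.002 (0.993 to 1.01), had intervals that span 1. The ratio ran from 0.790 in Paneth cells and 0.920 in Progenitor late-2 to 1.05 in early progenitors in the small intestine, and from 0.914 in Clara cells and 0.9197 in the class Macrophage to 1.10 in Fibroblast-1 and 1.14 in Fibroblast-2 in the lung. Past 1.5-fold were 0.441% of all small intestine genes higher and 0.626% lower, and 2.34% and 1.33% in the lung.

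Of the 4 summed comparisons with the prediction in multiplets, the small intestine's mitochondrially encoded group lay farthest from 1, at 1.16 (1.163 to 1.166) times the prediction. The singlets that gave the profiles were at 0.977 when fitted the same way, which is no measure of how far another library would depart. mt-Nd3 was at 1.52 times its prediction (1.49 to 1.56), past the limit, mt-Nd4 at 1.31, mt-Co3 at 1.29 and mt-Nd2 at 1.28, and mt-Atp8 at 0.734. The multiplets given mostly to 1 class showed the same direction in all 8 classes with enough of them. In enterocytes, 170 such multiplets held 10.3% mitochondrially encoded UMIs against 7.18% in 191 singlets. The ratio was 1.33 for Paneth cells, 1.24 for Progenitor late-1, 1.23 for Progenitor late-2, 1.21 for goblet cells, 1.15 for transit amplifying cells, 1.11 for stem cells and 1.05 for early progenitors. In the lung the same ratio lay on both sides of 1, from 0.859 in endothelial cells to 1.13 in Clara cells. Library and cell number cannot be told apart, since each tissue has 1 library of each kind.

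**Figure D5:**
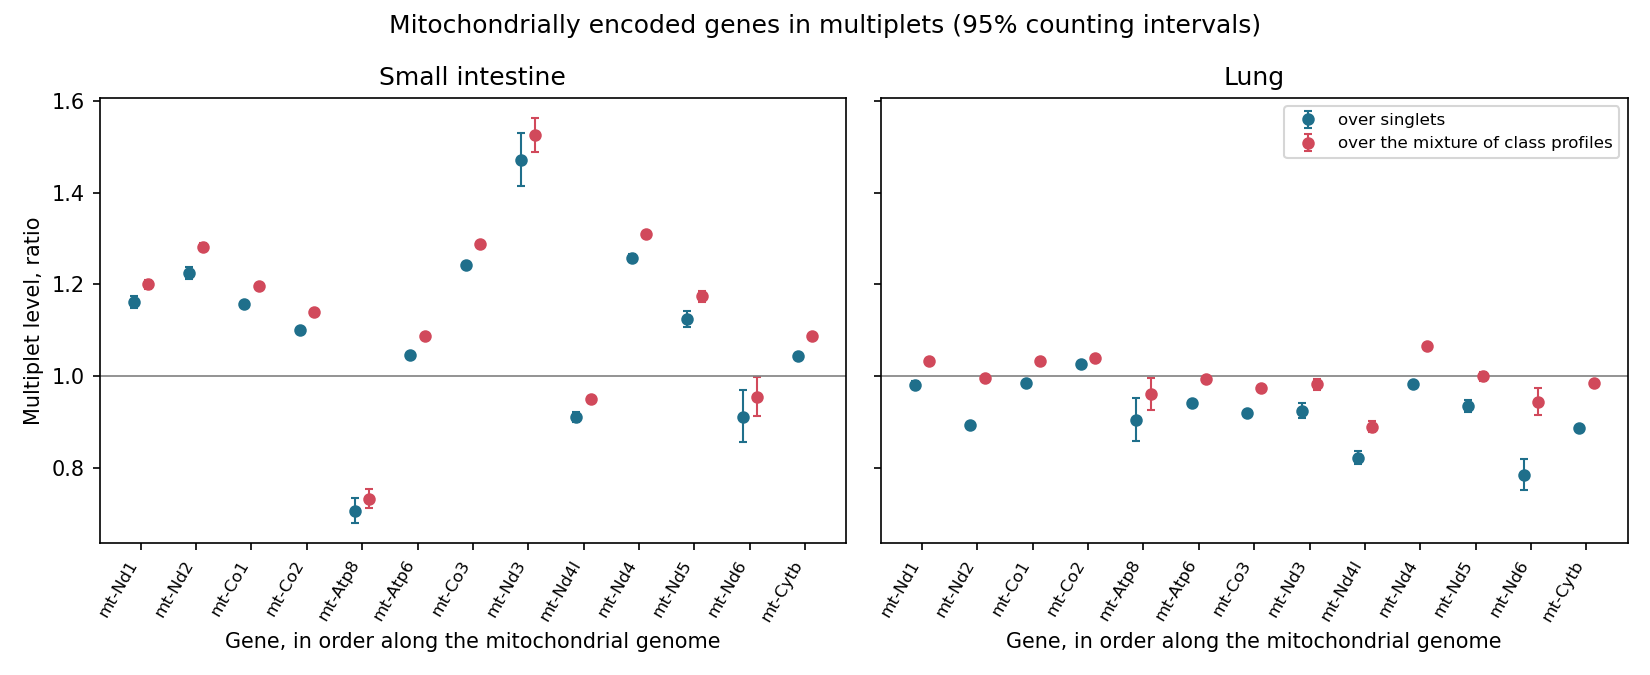
Mitochondrially encoded genes in multiplets, as the ratio to singlet CPM (blue) and to the level predicted from a mixture of class profiles (red), with 95% counting intervals. In the small intestine mt-Nd3 is highest in both measures, at 1.47 and 1.52, and mt-Atp8 lowest, at 0.708 and 0.734, while in the lung the predicted ratios lie between 0.891 and 1.07.

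In lung multiplets Cox4i2 stood above its prediction, and most of its UMIs were in few barcodes. The fit had no pericyte class, so its predictions for genes known from pericytes held only what the singlet classes carried. Cox4i2 had 447 UMIs, 3.43 times the prediction (3.12 to 3.76), and 285 of them (63.8%) were in 39 of 4729 barcodes. In those 39, chosen by their Cox4i2 counts, Pdgfrb was at 400.1 CPM against 6.20 in multiplets with no Cox4i2, Higd1b at 376 against 0.647 and Notch3 at 273 against 1.21, genes known from pericytes. Ndufa4l2 was at 344 against 1.37 CPM, with a UMI in 36 of the 39, and over all multiplets it was at 1.82 times its prediction (1.62 to 2.03). Of the smooth muscle genes, Acta2 was at 32.3 against 47.1 CPM and Myh11 at 58.6 against 7.79 CPM. Pecam1, an endothelial marker, was at 523 against 82.2 CPM with a UMI in 32 of the 39, and the 6 pericyte and smooth muscle markers together were at 174 CPM in all multiplets and 231 CPM in all singlets. In multiplets with no Cox4i2, Tagln had 5138 UMIs and Higd1b 41, so this sum does not measure pericytes alone. Cox4i1 was at 562 CPM in the 39 barcodes and 783 in the multiplets with no Cox4i2. Cox6a2, Cox6b2 and Cox8b were at 0.938, 1.07 and 0.779 times their predictions, and the share of Fibroblast-1, where Cox8b is highest, was smaller in multiplets.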

How the data were processed

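Per the labels' protocols, the kit was 10x Chromium 3′ v3. The deposited tables hold raw UMI counts per gene and barcode; Cell Ranger 4.0.0 and the mm10 build are named in the submitters' processing notes. The authors also deposited a quality flag and a cell class per barcode, by steps not given in the sources used here. The count tables held 5279 of 6710 listed barcodes for small intestine singlets, 3671 of 5607 for small intestine multiplets, 6084 of 8410 for lung singlets and 4729 of 8630 for lung multiplets; the other listed barcodes were not analysed here.

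UMIs were summed per library or class and divided by the total to give CPM. No count model or test was run, since each group is 1 library and the labels name no animals. Intervals are 95% exact Poisson (levels), conditional binomial (ratios) and Clopper-Pearson (shares), for counting error only. A gene was counted between libraries with at least 50 UMIs, and between a class and all other singlets with at least 20 UMIs observed or expected, in classes of at least 50 cells; it was called past 1.5-fold. The background percentages are over all genes counted in the same comparison. Multiplets were fitted as non-negative mixtures of class profiles on 40 genes per class, members left out, with 300 iterations. Shares of barcodes were also computed after thinning to 1500 UMIs. Doublets were kept, and leaving out those marked by Scrublet (85 small intestine and 126 lung singlets, 1.61% and 2.07%) was an alternative. The scripts were tested on simulated data.

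Named members were all 13 mitochondrially encoded genes, the 8 nuclear members of highest CPM and the 10 of widest range per tissue, the 5 highest and 5 lowest multiplet ratios, and the subunit paralogs; other pathway genes were taken from the 2 highest or 2 lowest of each list. Sdhb and others named beside them to complete a complex or show a class were chosen after their values were seen. Members and lists were chosen with earlier results of these data known. Promoter sequences are from RefSeq on GRCm38.p6 and gene positions from GENCODE. Software was Python 3.11.15, numpy 2.4.6, scipy 1.17.1, pandas 2.3.3, scanpy 1.11.5 and matplotlib 3.10.9.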

Additional observations from a re-analysis of the deposited data

Results flagged for a closer look

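Between singlets and multiplets, on the scale of total UMIs, the summed levels of nuclear and mitochondrially encoded members lay on opposite sides of 1 in the 2 tissues. The nuclear ratio was 0.9504 for small intestine and 1.07 for lung. The mitochondrially encoded ratio was 1.12 and 0.952 in the same order. Scaled to the median gene the mitochondrially encoded ratios, 1.202 and 0.9881, still lay on opposite sides of 1, while the nuclear ratios, 1.019 and 1.113, were both above 1. With 1 library of each kind the difference between tissues was not tested.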

How the results depend on the processing

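No paired analysis was possible because each group has 1 library, and no replicate could be left out. Values follow the order small intestine nuclear, small intestine mitochondrially encoded, lung nuclear, lung mitochondrially encoded, and only values that moved beyond their counting interval are given. For multiplets over singlets (0.9504, 1.12, 1.07 and 0.952), weighting each barcode equally gave 0.9635, 1.108, 1.099 and 0.9954, and scaling to the median gene gave 1.019, 1.202, 1.113 and 0.9881, which put the small intestine nuclear sum above 1. A total without mitochondrially encoded genes gave 0.9558, 1.127 and, for lung mitochondrially encoded genes, 0.9499. Barcodes of at least 5000 UMIs gave 0.9437, 1.17 and, for lung nuclear genes, 1.062. Without Scrublet doublets the small intestine mitochondrially encoded ratio was 1.119. Keeping barcodes with at most 10% mitochondrially encoded UMIs, an alternative chosen after seeing the data, gave 0.9407 and 1.095 in the small intestine.

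The count of small intestine members higher in multiplets went from 0 to 1 with median scaling, with barcodes of at least 5000 UMIs and with no filter on low counts. In the lung it went from 1 to 3 with equal weights and to 2 with median scaling or without doublets, and the count lower went from 1 to 2 with no filter. With a 2-fold limit the pairs of class and member were 4 higher and 117 lower in the small intestine and 29 and 52 in the lung, and median scaling gave 241 higher in the lung.

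Enterocytes over stem cells were at 1.829 for nuclear and 1.356 for mitochondrially encoded members. Median scaling gave 2.607 and 1.932, the total without mitochondrially encoded genes 1.867 and 1.383, barcodes of at most 10% 1.848 and 1.325, and equal weights 1.453 for mitochondrially encoded members. Type II pneumocytes over Fibroblast-1 were at 1.037 and 1.705. Equal weights gave 1.051 and 1.636, median scaling 1.597 and 2.627, the total without mitochondrially encoded genes 1.063 and 1.747, deep barcodes 1.019 and 1.783, and barcodes of at most 10% 1.698 for mitochondrially encoded members.

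Observed over predicted UMIs (1.003, 1.164, 1.003 and 1.011) were 1.007, 1.17 and, for lung mitochondrially encoded genes, 1.007 with 20 genes per class. They were 0.9985, 1.219, 0.9977 and 1.014 in deep barcodes. Without doublets they were 1.163, 0.9977 and 1.009 for the last 3, and with barcodes of at most 10% they were 1.005, 1.155 and, for lung mitochondrially encoded genes, 1.018. The cause of these shifts was not tested. Of the ratios above, none of the mitochondrially encoded ones crossed 1 under any alternative run.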
